A study of Homo sapiens with 118 samples.

Results

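Transcripts of the complement system were followed in HepaRG cells exposed to 8 histone deacetylase inhibitors. The 33 complement genes were chosen by name, as components of the classical, lectin, alternative and terminal pathways and as regulators, and each count table row was taken whose name equals a member once the trailing probe number is removed. This gave 39 of the 22068 rows with a value in every library, and 33 of the 19470 gene symbols that they name. A row is called a feature below. It is the count of 1 pair of detector probes, and C1RL had 3 features while C2, CLU, VTN and CD55 had 2 each.

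HepaRG is an established human hepatic line, labelled as liver progenitor cells from a liver tumour, and it was thawed in its differentiated state and cultured for 7 days before dosing. Exposure lasted 72 hours with daily renewal of the chemical, and replicates 1, 2 and 3 of a group were 3 batches of these cells. The labels name the concentrations C1 (lowest) to C5 (highest), and they are given by rank here because C2, C3 and C5 are also complement genes. From the lowest to the highest concentration, the dose labels ran from 0.041722 to 0.86 µM for apicidin, 0.177222 to 3.9 µM for mocetinostat, 0.001468 to 0.084 µM for panobinostat and 4.94 to 94.5 µM for scriptaid. They ran from 1.143333 to 44 µM for tacedinaline, 0.018811 to 1.5237 µM for trichostatin A and 0.404778 to 23.5 µM for vorinostat, and for valproic acid the values were 100.478 to 3038, with the unit unsettled because the labels and the treatment protocol differ. Panobinostat, scriptaid, trichostatin A and vorinostat are hydroxamic acids, mocetinostat and tacedinaline are benzamides, apicidin is a cyclic tetrapeptide and valproic acid is a branched fatty acid. The doses were not matched between them. No solvent-control library was used, so each concentration was compared with the lowest of the same chemical, and a change already complete at the lowest concentration would not be seen.

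Complement is a cascade of plasma proteins, most of them made by hepatocytes, that marks surfaces and kills or clears what it marks. The classical pathway starts with C1 on bound antibody and the lectin pathway with mannose-binding lectin on sugars, and both cut C4 and C2 to form an enzyme that cuts C3. The alternative pathway uses factor B (CFB) and factor D (CFD) for the same step, and C5 to C9 then assemble the membrane attack complex. Soluble inhibitors (factor I, C4b-binding protein, C1 inhibitor, vitronectin, clusterin) and proteins of the cell surface (CD46, CD55, CD59) keep the cascade from damaging host cells. The chemicals inhibit enzymes that take acetyl marks off histones, which changes the transcription of many genes.

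Promoter sequence is shown for a pair of features that fell and a pair of membrane regulators that did not fall, since these groups moved differently and the medians of base composition over their promoters lay apart. The 250 bases before the annotated start are printed from RefSeq (GRCh38.p14), 5′ to 3′ on the gene's own strand, with each CG dinucleotide in capitals. The window of C8B, a chain of the C8 complex, is chr1:56966016-56966265 on the minus strand and holds 0 CG at 45.2% G and C, and that of CFB is chr6:31945845-31946094 on the plus strand with 7 CG and 60.0% G and C. For CD55 the window is chr1:207321428-207321677 on the plus strand with 12 CG and 64.0% G and C, and for CD59 it is chr11:33736480-33736729 on the minus strand with 12 CG and 62.0% G and C. The first start listed is shown for each gene. CD59 has later starts, whose windows of 300 bases held 22, 1 and 1 CG at 69.0%, 44.3% and 51.0% G and C.
C8B: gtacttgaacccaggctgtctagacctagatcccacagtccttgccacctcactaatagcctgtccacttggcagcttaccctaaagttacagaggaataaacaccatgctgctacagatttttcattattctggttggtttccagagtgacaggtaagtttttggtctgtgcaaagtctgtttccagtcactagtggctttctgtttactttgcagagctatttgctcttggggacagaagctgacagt
CFB: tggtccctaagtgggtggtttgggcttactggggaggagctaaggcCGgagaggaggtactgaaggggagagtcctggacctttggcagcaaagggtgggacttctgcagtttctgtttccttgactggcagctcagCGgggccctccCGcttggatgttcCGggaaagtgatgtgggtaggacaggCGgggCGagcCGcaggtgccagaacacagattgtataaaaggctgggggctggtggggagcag
CD55: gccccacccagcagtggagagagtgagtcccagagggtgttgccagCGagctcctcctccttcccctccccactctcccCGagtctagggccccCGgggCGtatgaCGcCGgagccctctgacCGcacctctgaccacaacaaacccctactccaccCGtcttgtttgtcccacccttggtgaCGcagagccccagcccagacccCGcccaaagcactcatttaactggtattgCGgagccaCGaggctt
CD59: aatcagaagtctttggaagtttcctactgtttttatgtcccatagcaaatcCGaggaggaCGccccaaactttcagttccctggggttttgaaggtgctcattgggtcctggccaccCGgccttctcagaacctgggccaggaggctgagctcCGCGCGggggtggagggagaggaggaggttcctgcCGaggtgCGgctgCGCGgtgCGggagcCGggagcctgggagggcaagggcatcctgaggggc

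In the RefSeq table, 21 of the 33 genes matched, with 32 windows of 300 bases (250 before and 50 after a start), beside 35116 windows in all. Over all windows the median content of G and C was 58.7% and the median number of CG was 14. Of the genes that fell in 6 or 7 chemicals (below), 13 had a window. C1S, C3, C4A, C4B, C8G, CFHR2, CFHR3, CFHR4 and SERPING1 also fell but had none, so the values here leave them out. The 20 windows of the 13 genes had medians of 47.5% and 3 CG, whereas the 7 windows of CD46, CD55 and CD59 had 65.0% and 19 CG. The ranges overlap, at 30.3 to 75.7% and 0 to 40 CG for the genes that fell and 44.3 to 69.0% and 1 to 25 CG for the membrane regulators. Motifs were searched on both strands as fixed letters, where N is any base. The GC box GGGCGG was in 5.0% of the windows of genes that fell, in 71.43% of those of the membrane regulators and in 44.95% of all windows. A C/EBP motif (TTGCNNAA) was in 35.0%, 14.29% and 10.46% of these windows, and the HNF1 half-site GTTAAT in 25.0%, 0.0% and 6.883%. The CCAAT box was in 55.0%, 71.43% and 34.61%, the TATA box TATAAA in 5.0%, 0.0% and 11.53%, and the NF-kB motif GGGNNTTCC in 5.0%, 0.0% and 6.575%. Windows of 1 gene overlap, the groups are small, and these shares are descriptions without a test.

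The 118 libraries formed 40 groups of 3 libraries, except that the third concentration of panobinostat and the fourth of trichostatin A had 2. Total counts lay between 1061359 and 5250260 per library, and the group means of scriptaid and vorinostat fell from 3646506 and 3038905 at the lowest to 2325353 and 1485592 at the highest concentration. Hepatocyte markers (ALB, APOA1, APOB, TTR, TF, SERPINA1, HNF4A, FGB and CYP3A4 in 10 features) were abundant at the lowest concentration, at 40070 to 66240 summed CPM in 7 chemicals, where CPM is the count for each 1000000 counts of the TMM-scaled library. At the highest concentration they summed to 3403 to 29430 CPM, and 8 to 10 of the 10 features fell in each of those 7. In these bulk samples fewer hepatocyte-like cells and less RNA per cell cannot be told apart, and the part of the marker decline in the complement results was not tested. Of the biliary markers tested, 0 fell and 1 to 3 of 4 rose in the 7 chemicals, and summed levels went from 65.5 to 149 CPM to 87.9 to 214.5 CPM. Macrophage markers summed to 25.3 to 129 CPM at the lowest and 16.1 to 52.0 CPM at the highest concentration, mostly from CD68, while CD163, MARCO, LYZ and CSF1R had a median of 0 counts. Stellate cell or fibroblast markers summed to 84.7 to 160.5 CPM and then 71.3 to 136.8 CPM, with 1 to 3 of 6 tested features falling and 0 to 2 rising. Endothelial markers summed to at most 5.86 CPM at both concentrations of these 7 and to at most 15.8 CPM at the lowest of trichostatin A, and VWF, CDH5 and STAB2 had a median of 0 counts.

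In the trichostatin A set, the replicate 3 library of the lowest concentration stood apart. It was below both other libraries of its group in 30 of the 34 complement features tested and below all 3 libraries of the highest concentration in 27. The C1S feature, which codes for the protease that cuts C4, measured 1897, 2035 and 517 CPM in replicates 1, 2 and 3, and summed hepatocyte markers spanned 13170 to 54780 CPM in this group. Results for trichostatin A are therefore given with and without that library, after the other 7 chemicals. In the scriptaid set, the replicate 3 library of the second highest concentration also stood apart, with 10223 features of at least 5 counts beside 12367 and 12873 in its mates. It lay over 2-fold above or below both of them in 18 of the 32 complement features tested, against 11 or fewer of the members in every other library of a group of 3 but the 2 named here. In C1S it measured 1780 CPM beside 731 and 577, and in CD46 57.2 CPM beside 180.1 and 254.

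At the highest concentration, most soluble complement transcripts fell in 7 of the 8 chemicals, and the membrane regulators did not. A feature fell or rose if its adjusted p was under 0.05 and its fold change at least 1.5 (edgeR quasi-likelihood test, Benjamini-Hochberg over all features). The number that fell was 24 of 31 tested in apicidin, where 15.0% of all features fell, 25 of 31 in mocetinostat (15.7%), 22 of 32 in panobinostat (9.46%) and 25 of 32 in scriptaid (17.0%). It was 24 of 30 in tacedinaline (20.1%), 25 of 32 in valproic acid (6.22%) and 25 of 31 in vorinostat (24.9%). The members that rose were 4 in apicidin (13.8% of all features rose), 1 in panobinostat (6.77%), 2 in tacedinaline (18.7%) and 5 in vorinostat (22.7%). None rose in mocetinostat (14.8%), scriptaid (12.8%) or valproic acid (4.84%), and in these 3 the number at an unadjusted p under 0.05 was 0 and DESeq2 also gave 0. Without the scriptaid library that stood apart, 1 rose in scriptaid (18.6% of all features). The share of members that rose was below that of all features in each of the 7, at 16.1% of those tested in vorinostat and 12.9% in apicidin.

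Over the 8 chemicals 253 results were tested, of which 170 were falls and 12 were rises, and in all 182 of them each of the 3 batches moved in the direction called. The calls were made from these same libraries, so this agreement is not separate evidence. The median log2 change of the members was −2.22 in apicidin, −3.03 in mocetinostat, −1.48 in panobinostat, −2.95 in scriptaid, −3.59 in tacedinaline, −1.68 in valproic acid and −3.53 in vorinostat. Medians over all features tested lay between −0.00 and 0.08. In 17 of the falls the highest concentration had at most 3 counts in every library, so that the fold is only a lower bound. With these set to their bound the medians were −2.97 in mocetinostat, −2.89 in scriptaid, −3.18 in tacedinaline and −3.04 in vorinostat. The same 21 features of 19 genes fell in all 7 chemicals, 3 features fell in 6, and 5 features (C1RL_12969, C2_26940, FCN3_89716, CFD_17475 and CFHR5_10720) had too few counts to be tested in any chemical. The share of all features that fell in all 7 chemicals or in 6 was not computed, so these counts across chemicals have no background beside them.

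**Figure D1:**
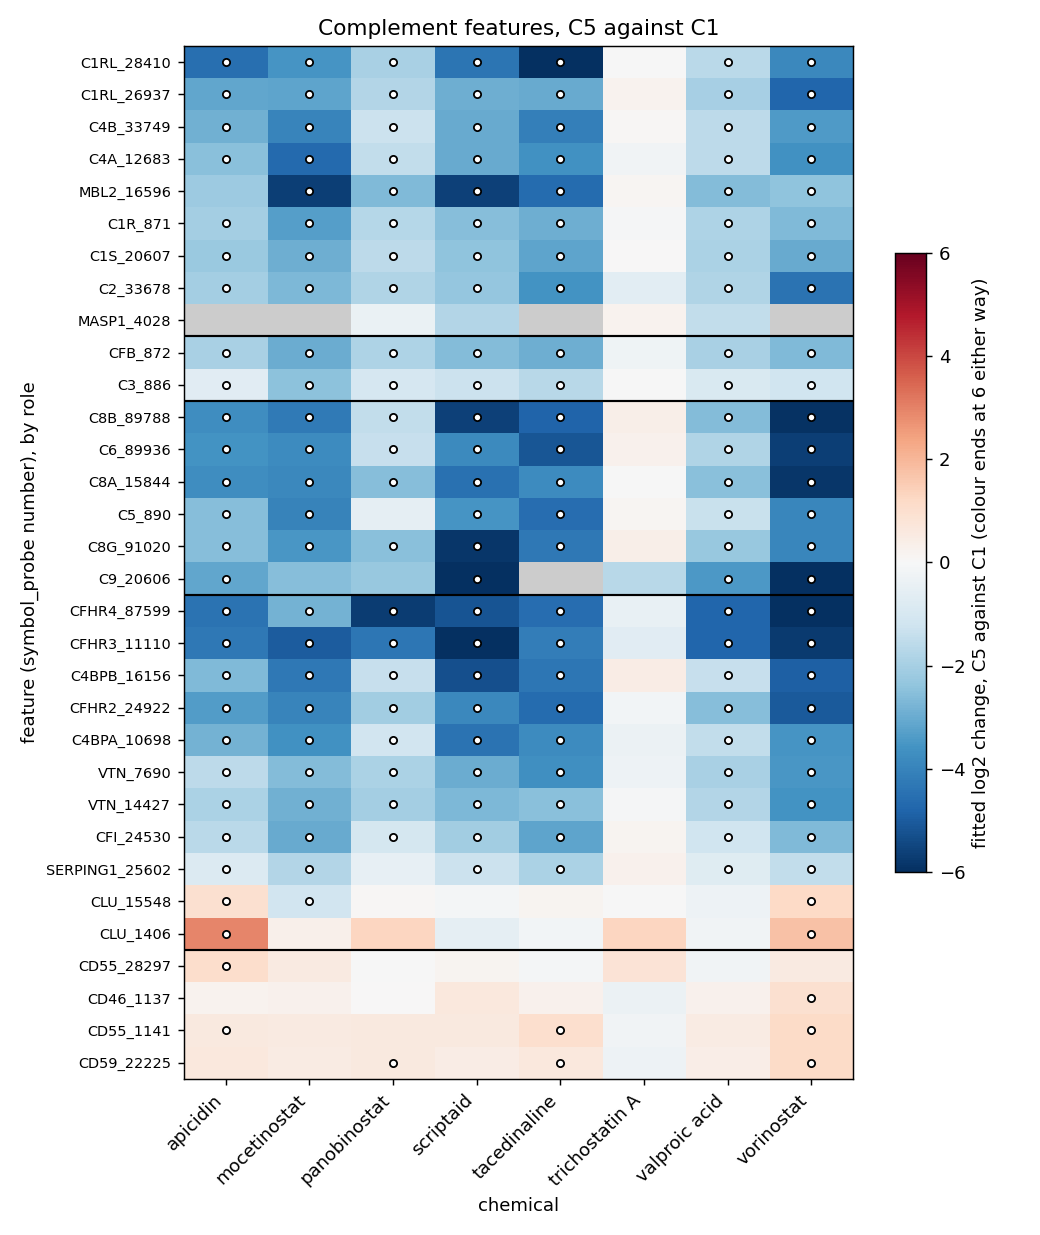
Log2 change of each complement feature at the highest (C5) against the lowest (C1) concentration, with features in rows grouped by role and the 8 chemicals in columns, for the 32 features tested in more than 1 chemical. Dots mark features that passed the test, grey cells were not tested and the colour scale ends at −6 and 6; the 21 features that fell in 7 chemicals form unbroken blue rows except for trichostatin A, and CD46, CD55 and CD59 are near 0 or above it.

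Classical and lectin pathway transcripts fell in 55 of 59 results over the 7 chemicals, with a median log2 change of −2.67, and rose in 0. C1S fell in all 7, with changes from −3.18 to −1.59. Its 21 libraries at the lowest concentration measured 1494 to 2393 CPM with a median of 1771, and the 21 at the highest measured 167 to 692 CPM with a median of 342, so the groups did not overlap. Its partner protease C1R changed by −3.31 to −1.69, and its median went from 236 to 44.9 CPM. The C4A and C4B features, whose genes are nearly identical so that probes may share reads, fell in all 7 chemicals and went from medians of 147 and 523 CPM to 19.4 and 64.5 CPM. C2_33678, the probe of C2 that was detected, went from a median of 73.5 to 13.7 CPM.

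C1RL, a protease related to C1R and C1S, had the largest median decline of this group in the feature C1RL_28410. In tacedinaline it measured 12.4, 13.9 and 12.2 CPM at the lowest concentration and 0, 0 and 0 at the highest, which is at least 9.36-fold lower with the floor of 3 counts per library (edgeR adjusted p = 1.34e-06). In apicidin it went from 17.3, 12.0 and 11.8 CPM to 0.748, 0.233 and 0.706, at least 19.1-fold lower (edgeR adjusted p = 1.71e-05). The smallest change was in valproic acid, from 14.0, 14.7 and 12.9 CPM to 4.57, 2.69 and 6.43 (log2 change −1.61, SE 0.40, edgeR adjusted p = 0.0093). Without replicate 1 or 2 the change in valproic acid did not pass (edgeR adjusted p = 0.107 and 0.154). In none of the 7 chemicals did the 3 libraries at the lowest concentration overlap those at the highest. A second probe, C1RL_26937, fell in the same 7 chemicals, and C1RL_12969 never exceeded 3 counts.

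The lectin pathway was near the detection limit. MBL2, the mannose-binding lectin, had a median of 7.52 CPM at the lowest concentration and fell in 6 chemicals. In scriptaid it measured 19.5, 10.3 and 15.5 CPM and then 0.453, 0.303 and 0, at least 11.8-fold lower (edgeR adjusted p = 9.68e-05). Apicidin was the exception, with 4.37, 5.56 and 3.59 CPM against 0.998, 0 and 1.88 (log2 change −2.2, SE 0.99, edgeR adjusted p = 0.0999). MASP1, a protease that binds such lectins, was tested in 4 chemicals and passed in 0, MASP2 was tested only in trichostatin A, and the ficolin FCN3 had at most 2 counts in any library.

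In the alternative pathway and at the point where the pathways meet, CFB and C3 fell in 7 of 7 chemicals, and CFD had at most 2 counts. CFB is the protease of the alternative convertase. At the lowest concentration its 21 libraries lay between 1370 and 2646 CPM with a median of 1677, and at the highest between 199 and 527 CPM with a median of 307. In mocetinostat, CFB went from 2646, 2026 and 2524 CPM to 329, 309 and 279.7 (log2 change −2.97, SE 0.24, edgeR adjusted p = 1.63e-07), the largest change. Tacedinaline took it from 1746, 1649 and 1441 CPM to 221, 213 and 209 (−2.91, SE 0.13, edgeR adjusted p = 5.57e-22). The smallest change was in panobinostat, from 1983, 1719 and 1516 CPM to 509, 527 and 415 (−1.85, SE 0.21, edgeR adjusted p = 1.49e-06).

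C3, the protein on which all pathways act, fell less than CFB in each of the 7 chemicals by its fitted value, a difference between probes that was not tested. In apicidin it went from 513, 435 and 489 CPM to 284, 305 and 301 (log2 change −0.69, SE 0.16, edgeR adjusted p = 0.00252), and in mocetinostat from 512, 441 and 618 CPM to 89.7, 98.8 and 93.9 (−2.47, SE 0.26, edgeR adjusted p = 2.83e-06). The groups did not overlap within any of the 7 chemicals. Over all chemicals together they did, since 305 CPM in apicidin at the highest concentration exceeded the lowest value of 298 CPM at the lowest.

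Terminal pathway transcripts fell in 38 of 41 results, with a median log2 change of −3.75, or −3.43 with bounds. C6, C8A, C8B and C8G fell in all 7 chemicals. C8B, the beta chain of C8, went from 24.7, 28.0 and 35.4 CPM in vorinostat to 0, 1.05 and 0, at least 14.1-fold lower (edgeR adjusted p = 2.37e-07). In scriptaid it went from 37.1, 44.0 and 24.4 CPM to 2.26, 0 and 0 (log2 change −5.58, SE 0.80, edgeR adjusted p = 4.4e-05). Panobinostat left more of it, with 24.1, 23.8 and 25.2 CPM against 10.4, 8.19 and 7.98 (−1.46, SE 0.34, edgeR adjusted p = 0.00465), and without replicate 1 the change did not pass (edgeR adjusted p = 0.0697). The alpha chain C8A was at least 25.2-fold lower in vorinostat (edgeR adjusted p = 7.94e-11), and C6 changed by −1.39 in panobinostat to −5.67 in vorinostat.

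C5_890, the feature of complement C5, fell in 6 chemicals. In tacedinaline it went from 667, 633 and 535 CPM to 28.9, 21.1 and 27.0 (log2 change −4.58, SE 0.18, edgeR adjusted p = 1.16e-23). In panobinostat the values were 389.9, 349.9 and 327 CPM against 291, 254 and 201, which do not overlap but did not pass the test (−0.52, SE 0.26, edgeR adjusted p = 0.182). C9, which forms the pore, was close to the floor with a median of 5.34 CPM at the lowest concentration and fell in 4 of the 6 chemicals outside trichostatin A in which it was tested. In scriptaid it went from 9.91, 10.3 and 7.14 CPM to 0, 0 and 0, at least 7.15-fold lower (edgeR adjusted p = 0.00134). C7 was tested only in trichostatin A, and its median at the lowest concentration of the other chemicals was 0.737 CPM.

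**Figure D2:**
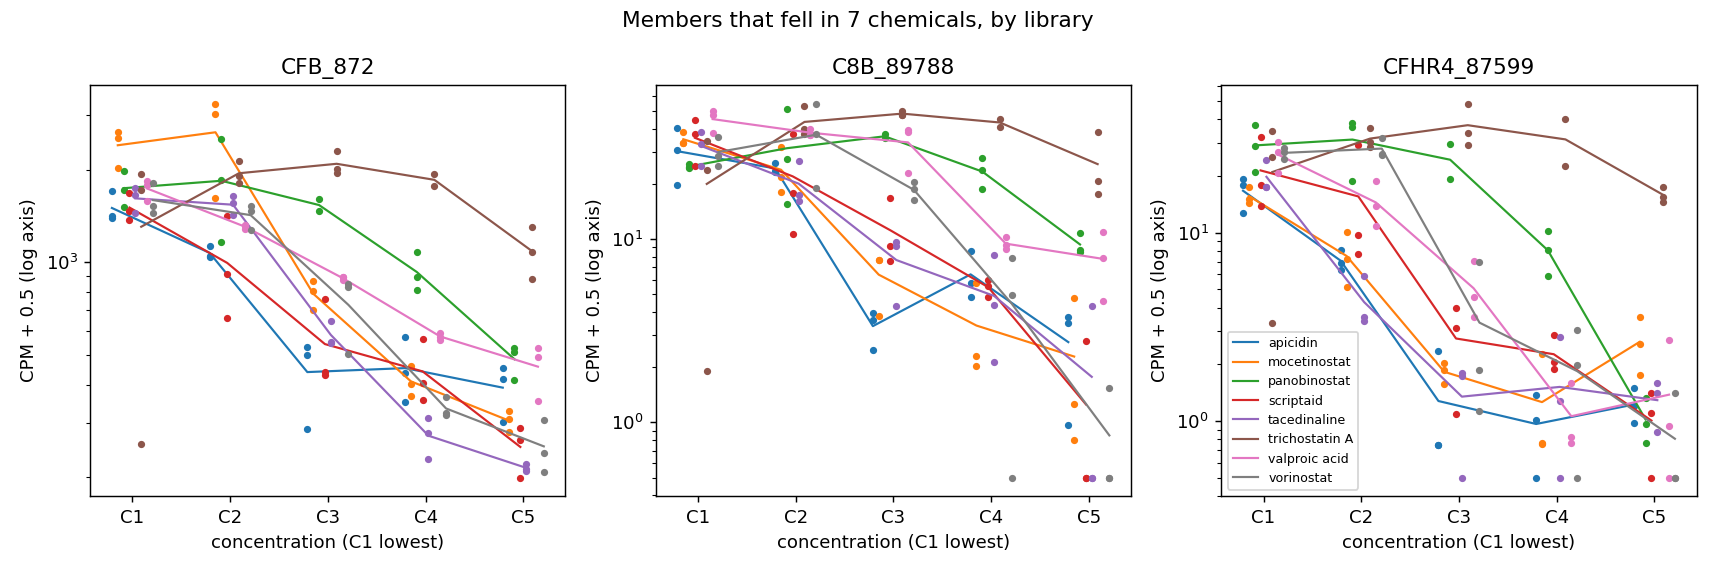
CPM plus 0.5 on a log axis for CFB_872, C8B_89788 and CFHR4_87599 at the 5 concentrations (C1 to C5) of each chemical, with points for libraries and lines through group means. In 7 chemicals the means at C5 lie below those at C1, although C8B_89788 in panobinostat is first higher, with a mean of 35.9 CPM at C3 beside 24.4 CPM at C1; in trichostatin A the replicate 3 library at C1 lies below both of its mates in CFB_872, at 256 CPM against 1936 and 1719 CPM.

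Soluble regulators fell in 63 of 77 results and rose in 4, with a median log2 change of −2.61. CFHR3 and CFHR4 code for proteins related to complement factor H. With bounds, the median changes of this group were largest in CFHR3 (−4.77), C4BPB (−4.29) and CFHR4 (−4.04). CFHR4_87599 measured 20.5, 37.0 and 28.3 CPM at the lowest concentration of panobinostat and 0.818, 0.468 and 0.266 at the highest, at least 37.0-fold lower (edgeR adjusted p = 6.98e-08). Valproic acid took it from 26.4, 20.4 and 29.8 CPM to 0.435, 2.2 and 0 (log2 change −4.78, SE 0.61, edgeR adjusted p = 1.15e-05). The smallest change was in mocetinostat, from 14.7, 13.9 and 16.9 CPM to 3.06, 1.26 and 2.07 (−2.81, SE 0.61, edgeR adjusted p = 0.0022). All 21 libraries at the highest concentration, at 0 to 3.06 CPM, lay below all 21 at the lowest, at 12.3 to 37.0 CPM. CFHR3 changed by −6.13 to −4.13 and CFHR2 by −5.04 to −2.09, and since these genes are closely related, their probes may share reads. CFHR5 was not tested.

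C4BPB, a chain of C4b-binding protein that helps to inactivate C4b, spanned a wide range. In scriptaid it went from 663, 659 and 536 CPM to 18.1, 23.1 and 5.20 (log2 change −5.29, SE 0.53, edgeR adjusted p = 1.2e-06). In panobinostat it went only from 693, 649 and 505 CPM to 264, 220.3 and 214 (−1.40, SE 0.19, edgeR adjusted p = 1.32e-05). The alpha chain C4BPA changed by −4.44 to −1.15. CFI, the protease that cuts C3b and C4b, had a median of 840 CPM at the lowest and 233 CPM at the highest concentration and changed by −3.18 in tacedinaline to −1.05 in panobinostat.

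SERPING1, the C1 inhibitor, declined least of the soluble regulators that fell. It passed in 6 chemicals, with a largest change in tacedinaline from 812, 671 and 699 CPM to 235, 196 and 161 (log2 change −1.88, SE 0.16, edgeR adjusted p = 8.29e-13). In panobinostat it measured 618, 649 and 606 CPM and then 421.9, 457 and 446 (−0.50, SE 0.18, edgeR adjusted p = 0.0589). The probes of VTN, which codes for vitronectin, both fell in 7 chemicals and went from medians of 237 and 92.3 CPM to 39.9 and 18.8 CPM.

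Clusterin (CLU), a chaperone that also binds the terminal complex, did not follow the other soluble regulators. CLU_15548 rose in apicidin from 35.6, 55.8 and 46.1 CPM to 68.1, 107 and 93.4 (log2 change 0.96, SE 0.28, edgeR adjusted p = 0.0113). It rose in vorinostat from 43.6, 42.8 and 39.2 CPM to 94.8, 90.5 and 100.4 (1.19, SE 0.23, edgeR adjusted p = 4.75e-05), where the groups lie far apart. In mocetinostat it fell from 61.2, 54.2 and 105 CPM to 31.9, 27.8 and 39.7 (−1.15, SE 0.33, edgeR adjusted p = 0.0141). The other 4 of the 7 chemicals gave changes between −0.29 and 0.16 that did not pass. The low-count probe CLU_1406 rose in the same pair as the rises of CLU_15548, from 1.19, 3.11 and 1.28 CPM to 15.7, 17.7 and 10.4 in apicidin (2.95, SE 0.55, edgeR adjusted p = 0.000362) and from 4.02, 6.23 and 2.89 CPM to 11.9, 19.4 and 14.4 in vorinostat (1.77, SE 0.56, edgeR adjusted p = 0.00854). In mocetinostat it measured 4.65, 4.01 and 2.99 CPM and then 4.33, 4.30 and 5.63, so the probes of CLU did not move together there. Single replicates decided several of these calls, since CLU_15548 did not pass in apicidin without replicate 3 (edgeR adjusted p = 0.12) or in mocetinostat without replicate 2 (edgeR adjusted p = 0.10), nor CLU_1406 in vorinostat without replicate 3 (edgeR adjusted p = 0.0668).

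Regulators of the cell surface fell in 0 of 28 results and rose in 8, with a median log2 change of 0.52. CD59, which blocks pore formation by C9, had 21 libraries at 206 to 449 CPM at the lowest concentration with a median of 346, and at 370.3 to 655 CPM at the highest with a median of 553. In vorinostat it went from 322, 305 and 257 CPM to 636, 655 and 643 (log2 change 1.13, SE 0.16, edgeR adjusted p = 6.21e-07). The rises in panobinostat, from 365, 413 and 346 CPM to 543, 619 and 551 (0.61, SE 0.19, edgeR adjusted p = 0.0294), and in tacedinaline, from 387, 295 and 386 CPM to 583, 608 and 441 (0.62, SE 0.15, edgeR adjusted p = 0.000783), were close to the minimum fold. The former did not pass without replicate 1 or 3 (edgeR adjusted p = 0.183 and 0.203), nor the latter without replicate 2 (edgeR adjusted p = 0.105). Apicidin gave a change of 0.63 that did not pass (SE 0.25, edgeR adjusted p = 0.0575), and the remaining 3 gave 0.42 to 0.51.

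CD55, which breaks up the enzymes that cut C3, rose through the probe CD55_1141 in apicidin (log2 change 0.59, SE 0.19, edgeR adjusted p = 0.0220), tacedinaline (1.02, SE 0.21, edgeR adjusted p = 9.67e-05) and vorinostat (1.16, SE 0.21, edgeR adjusted p = 2.41e-05). Means in vorinostat were 39.5 ± 4.84 CPM and 88.4 ± 12.7 CPM (SD, n = 3). Its probe CD55_28297 rose only in apicidin (1.08, SE 0.31, edgeR adjusted p = 0.0109) and gave −0.13 in tacedinaline, so the probes disagree there. CD46, a cofactor for factor I, rose in vorinostat and in no other chemical with all libraries, from 152 ± 12.9 to 295 ± 22.2 CPM (SD, n = 3; 0.96, SE 0.15, edgeR adjusted p = 1.97e-06). Single replicates decided the apicidin calls, since CD55_1141 did not pass without replicate 1, 2 or 3 (edgeR adjusted p = 0.0665, 0.0655 and 0.206) and CD55_28297 did not pass without replicate 3 (edgeR adjusted p = 0.102). CD46 in scriptaid changed by 0.62 and did not pass (SE 0.35, edgeR adjusted p = 0.192), but it rose without the replicate 3 library of the second highest concentration (0.61, SE 0.18, edgeR adjusted p = 0.00771). The CD55_1141 calls in tacedinaline and vorinostat and the CD46 call in vorinostat passed without any 1 replicate. The rises of the membrane regulators stand beside 22.7% of all features in vorinostat, 18.7% in tacedinaline, 13.8% in apicidin and 6.77% in panobinostat that rose.

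**Figure D3:**
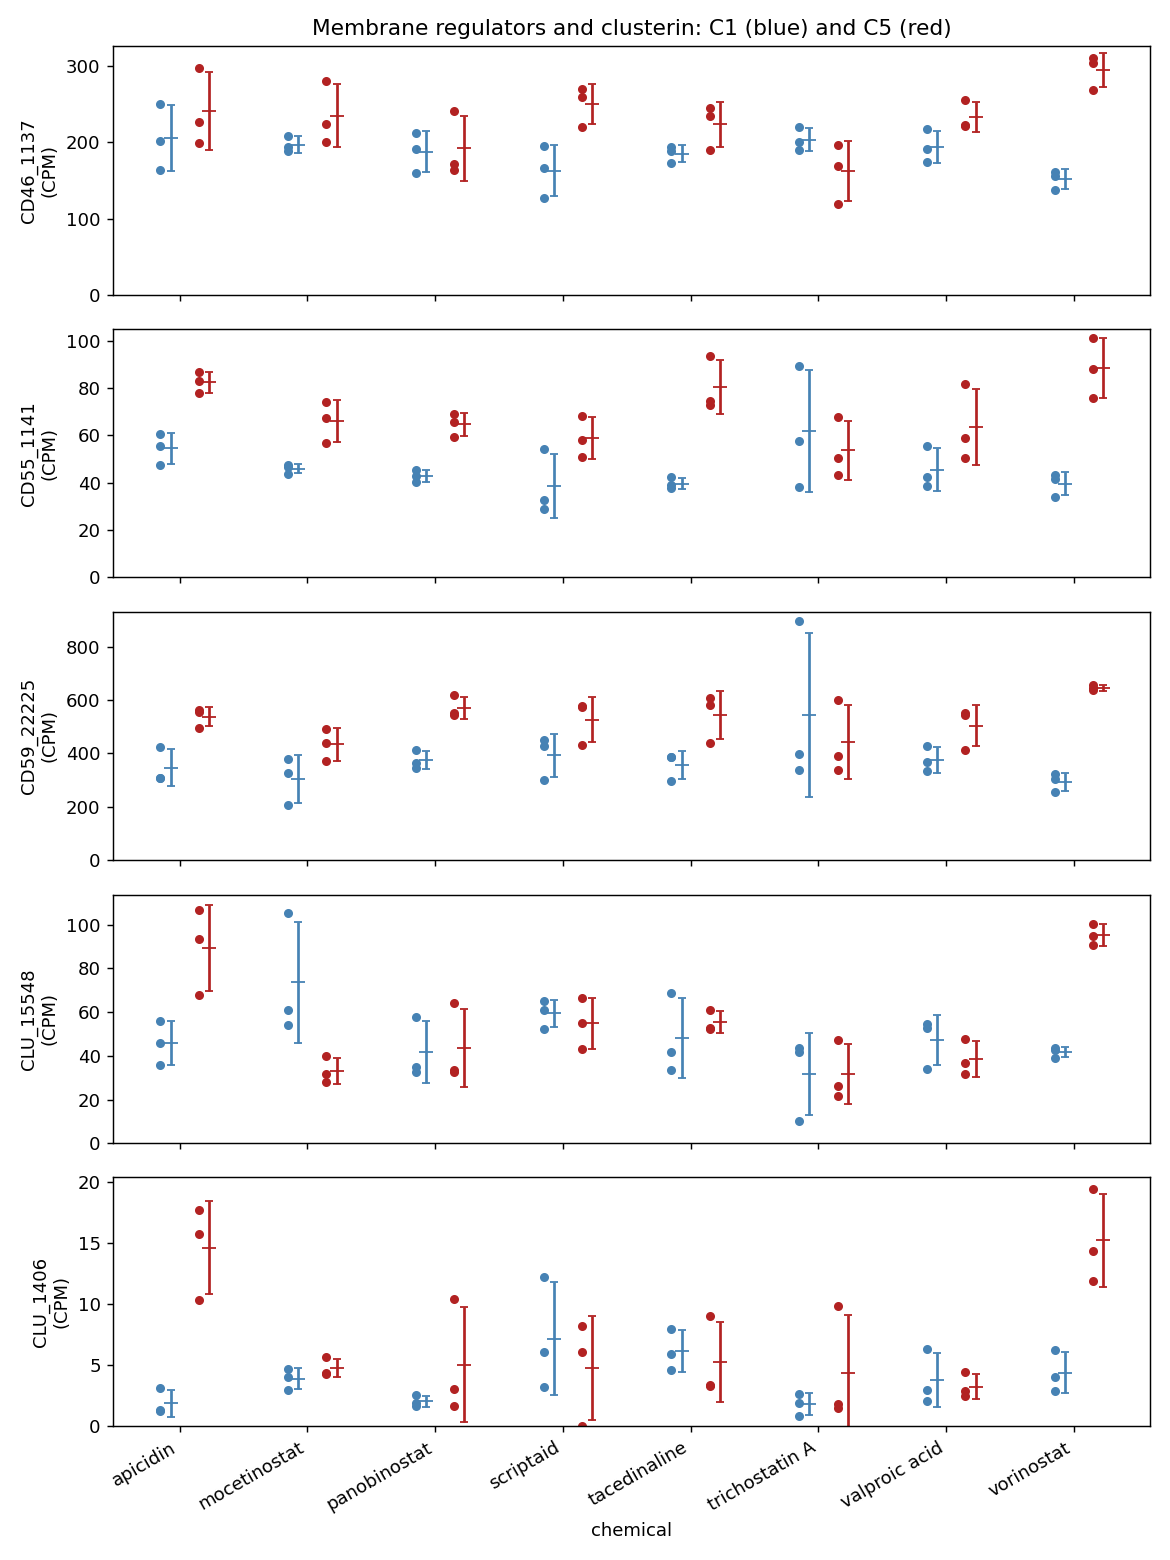
CPM of CD46_1137, CD55_1141, CD59_22225, CLU_15548 and CLU_1406 at the lowest (C1, blue) and highest (C5, red) concentration of each chemical, with points for libraries and the mean and SD of each group. CD59 in vorinostat separates fully, at 257 to 322 CPM against 636 to 655 CPM, and CLU_15548 is higher at C5 in apicidin and vorinostat and lower in mocetinostat.

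Summed over soluble members, levels went from 9523 ± 976 to 1085 ± 67.4 CPM in tacedinaline and from 10140 ± 971 to 3694 ± 315 CPM in panobinostat (SD, n = 3 each). The membrane regulators summed to 508 ± 36.0 and 1062 ± 27.7 CPM in vorinostat. These sums are dominated by the features with the most counts, and probe pairs differ in efficiency, so levels of different genes are not compared.

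The concentration at which the falls first passed differed between chemicals. At the second concentration 0 members fell in any of the 8 chemicals, where the share of all features that fell was 0.0315% in apicidin, 0.0383% in mocetinostat, 0.0883% in tacedinaline, 0.00860% in vorinostat and 0% in panobinostat, scriptaid, trichostatin A and valproic acid. At an unadjusted p under 0.05 the edgeR test gave 9 falls each in apicidin and mocetinostat, 5 in tacedinaline, 4 in valproic acid, 1 in scriptaid and 0 in the others, and DESeq2 called 2 in apicidin, 3 in mocetinostat, 1 in valproic acid and 0 in the others. At the third concentration 24 fell in apicidin (8.39% of all features), 22 in mocetinostat (5.14%), 22 in tacedinaline (6.46%) and 12 in vorinostat (3.88%). Scriptaid had 7 (0.876%), valproic acid 5 (0.840%), and panobinostat and trichostatin A 0 (0% each). At the second highest concentration the counts were 24 in apicidin (11.2%), 24 in mocetinostat (11.6%), 24 in tacedinaline (16.4%), 24 in vorinostat (16.7%), 23 in valproic acid (6.35%), 13 in scriptaid (2.67%), 6 in panobinostat (1.40%) and 0 in trichostatin A (0%).

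Read against these shares, the members fell more often than the features at large at each concentration at which any fell. In panobinostat 16 of the 22 falls at the highest concentration passed first at that concentration, and in apicidin all 24 had passed by the third. The steps between concentrations differ between chemicals, so these ranks are not doses on a shared scale. The calls at the third and second highest concentrations of scriptaid, panobinostat and valproic acid depended on single replicates. Without replicate 2, scriptaid had 0 at both. Without only its replicate 3 library of the second highest concentration, which stood apart, 19 of 33 fell at the third (3.67% of all features), 18 at the second highest (6.02%) and 26 at the highest (22.6%). The fit of a chemical shares 1 estimate of the spread over its 5 concentrations. Panobinostat had 0 at the second highest without replicate 1 and 1 without replicate 3, and valproic acid had 0 at the third without replicate 1. The 0 falls at the second concentration of mocetinostat also depended on 1 replicate. Without replicate 3, 9 of 31 members fell there, beside 1743 of 13235 features. The replicate 3 library of that group lay over 2-fold from both mates in 11 of 31 members.

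CFB shows the order within a chemical. In tacedinaline its means from the lowest to the highest concentration were 1612 ± 156, 1538 ± 106, 580.4 ± 54.1, 273 ± 40.7 and 214 ± 5.85 CPM (SD, n = 3), and the third was the first to pass (log2 change −1.47, SE 0.12, edgeR adjusted p = 1.63e-12). In panobinostat they were 1740.0 ± 234, 1839 ± 673, 1534 ± 99.2, 929 ± 136 and 484 ± 59.9 CPM (SD, n = 3, with 2 at the third), and the second highest was the first to pass (−0.90, SE 0.20, edgeR adjusted p = 0.0164). C8B in panobinostat kept 22.9 ± 4.43 CPM at the second highest concentration beside 24.4 ± 0.741 at the lowest (SD, n = 3) and passed only at the highest. CFHR4 in tacedinaline was already at 3.78 ± 1.4 CPM at the second concentration beside 19.3 ± 4.00 at the lowest (SD, n = 3), a change of −2.35 that did not pass (SE 0.69, edgeR adjusted p = 0.16).

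**Figure D4:**
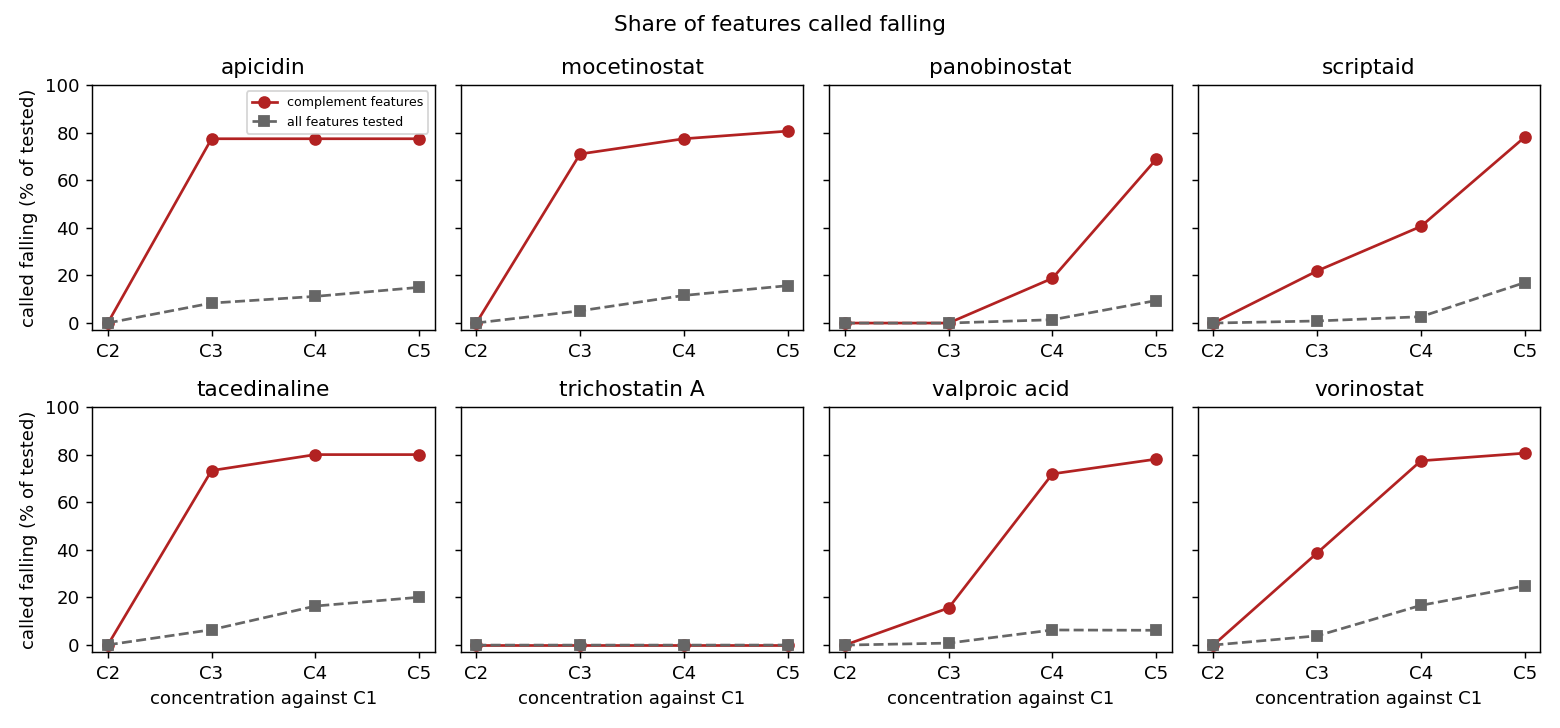
Percentage of tested features that fell against the lowest concentration, for complement members and for all features, at concentrations C2 to C5 of each chemical. The members' line lies at 0 at C2 and above that of all features wherever any member fell, reaching 24 of 31 in apicidin at C3, and it stays at 0 in trichostatin A.

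Whether the change at the highest concentration differed between chemicals was tested across the 118 libraries in 1 fit. Over the 7 chemicals without trichostatin A it differed for 20 of 35 members, where 21.4% of 15632 features passed, and over all 8 for 27 of 35, where 30.3% passed. The smallest p-values over 7 chemicals belonged to C4BPB (edgeR adjusted p = 4.38e-17), C4B (7.62e-13), CFI (5.46e-12), C5_890 (3.93e-10) and C4A (4.79e-09). Among those that did not pass were CFHR3 (edgeR adjusted p = 0.430), CFHR4 (0.148), C8G (0.269), CD46 (0.371), CD55_1141 (0.852) and CD59 (0.879), so the rises of the membrane regulators in some chemicals were not shown to differ from the changes in the others. CLU_15548 passed this test over the 7 chemicals (edgeR adjusted p = 0.00690). This test compares the highest concentrations used, which were not matched, and plate and chemical cannot be told apart for scriptaid, tacedinaline and vorinostat, which shared a plate of their own.

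In trichostatin A 0 of 34 members fell and 0 rose at the highest concentration, beside 0.0154% and 0% of all features, with a median log2 change of −0.03. At an unadjusted p under 0.05 the edgeR test gave 2 falls and 0 rises, and DESeq2 called 0. CFB measured 1936, 1719 and 256 CPM at the lowest concentration and 1077, 884 and 1297 at the highest (−0.26, SE 0.41, edgeR adjusted p = 0.895), so replicate 3 moved opposite to the others. CD59 measured 339.7, 398 and 896 CPM in the 3 libraries of the lowest concentration. From the lowest to the highest concentration the CFB means were 1304 ± 914, 1945 ± 168, 2088 ± 189, 1852 ± 123 and 1086 ± 207 CPM (SD, n = 3, with 2 at the second highest). Without the replicate 3 library of the lowest concentration, 4 members fell: CFB (log2 change −0.76, SE 0.14, edgeR adjusted p = 0.00764), CFHR3 (−1.10, SE 0.26, edgeR adjusted p = 0.0412), C9 (−2.08, SE 0.45, edgeR adjusted p = 0.0201) and C2_33678 (−1.11, SE 0.24, edgeR adjusted p = 0.0218), beside 0.645% of all features that fell, and the median was −0.45. Without replicate 3 at every concentration 8 fell, these 4 among them, beside 1.44% of all features, and the median was −0.54.

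**Figure D5:**
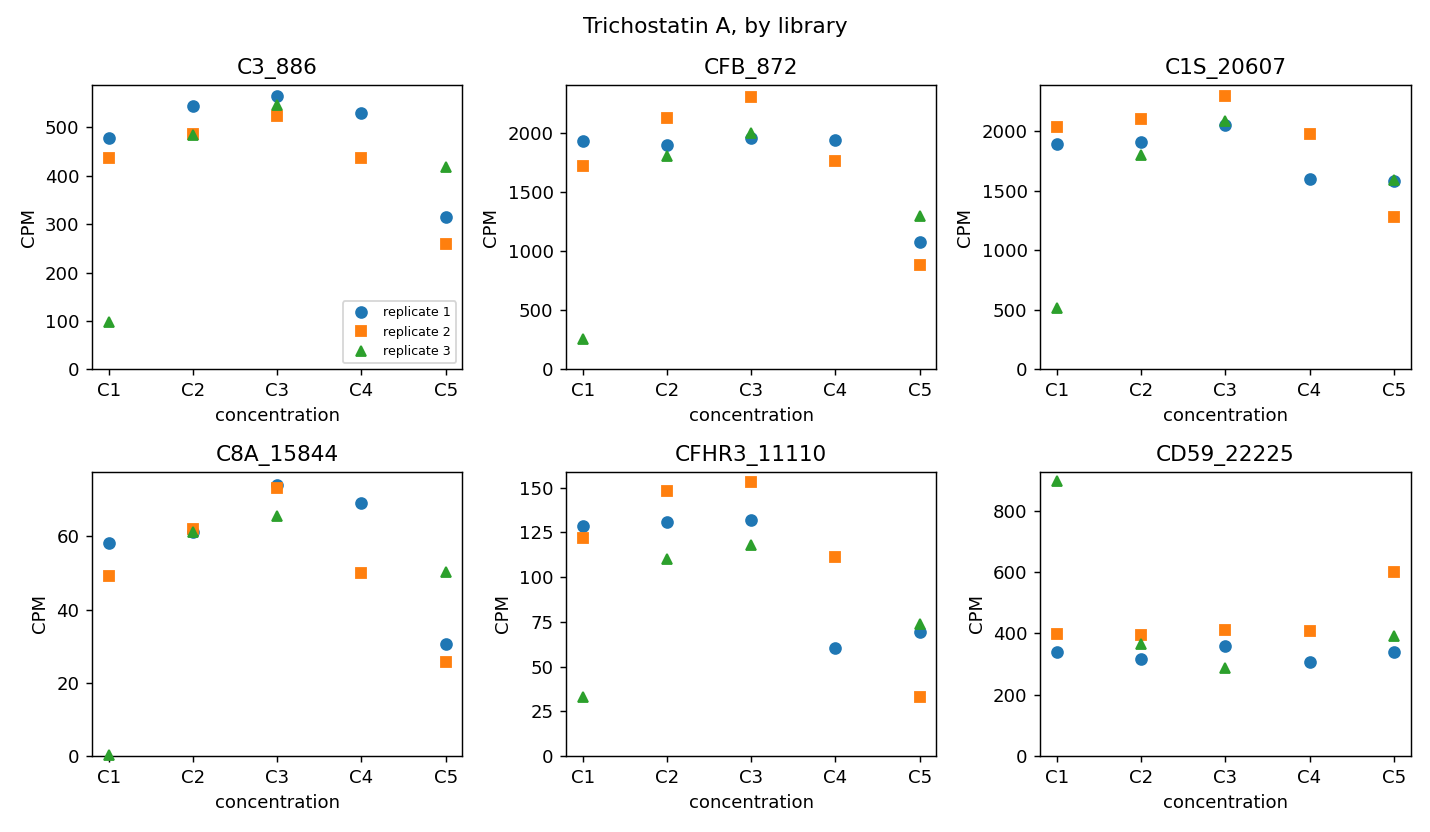
CPM of 6 complement features in each trichostatin A library at the 5 concentrations (C1 to C5), with each replicate drawn in its own colour and shape on a linear axis from 0. At C1 replicate 3 lies below replicates 1 and 2 in C3, CFB, C1S, C8A and CFHR3 and above them in CD59, at 896 CPM against 339.7 and 398 CPM.

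Complement genes outside the 33 were little detected. Of 25 such genes (C1q chains, ficolins, collectins, properdin, carboxypeptidase N, pentraxins, receptors and others), 17 had a median of 0 counts and 15 were tested in no chemical. CRP, an acute-phase protein that activates the classical pathway, fell in 7 chemicals, with changes such as −5.30 in tacedinaline (edgeR adjusted p = 2.53e-05). ITGAM, a chain of complement receptor 3, fell in 5, and ITGAX, a chain of complement receptor 4, rose in 5. CR2, complement receptor 2, rose in each of the 3 chemicals in which it was tested, by 2.64 to 6.42 on the log2 scale. Properdin (CFP) rose in 1 of the 2 in which it was tested, by 3.69. Both had low counts, at most 37 and 14 in any library. The share of all features that moved alike in as many chemicals was not computed.

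A set of 16 regulator genes had 20 features (transcription factors and cytokine receptors that act on hepatic or acute-phase genes). Of these, 18 were tested in tacedinaline and vorinostat and 20 in the others. Falls and rises numbered 7 and 3 in apicidin (15.0% and 13.8% of all features) and 11 and 3 in mocetinostat (15.7% and 14.8%). They were 6 and 0 in panobinostat (9.46% and 6.77%), 9 and 0 in scriptaid (17.0% and 12.8%) and 8 and 6 in tacedinaline (20.1% and 18.7%). Valproic acid had 1 and 0 (6.22% and 4.84%) and vorinostat 5 and 6 (24.9% and 22.7%), and the falls in these were near the share of all features. IL6R, a chain of the interleukin 6 receptor, fell in 7 chemicals. HNF4A, a hepatocyte transcription factor, fell in 6, from −1.74 in panobinostat (edgeR adjusted p = 0.00820) to −4.59 in mocetinostat (edgeR adjusted p = 0.000127). NR1H4, the bile acid receptor, also fell in 6. In valproic acid HNF4A gave −1.19 and did not pass (edgeR adjusted p = 0.0738).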

How the data were processed

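Whole-transcriptome TempO-Seq libraries of HepaRG lysates were analysed, 118 in 40 groups. The authors deposited raw read counts per detector probe, as whole numbers without normalisation. The submitters' processing notes name bcl2fastq 2.20.422, fastp 0.23.2, STAR 2.7.10b and DESeq2 1.38.0 without their roles, and the probe annotation and genome build are not given in the sources used here. Of 22069 rows, 1 lacked a value in 88 libraries and was left out. Probes are amplified without molecular identifiers, so floors and bounds cover counting error only. The paper given with the series describes another HepaRG experiment and was used for its style.

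Each chemical was fitted on its own, over the whole table, with edgeR 4.0.16 in R 4.3.3 (filterByExpr, TMM scaling, quasi-likelihood F tests, Benjamini-Hochberg adjustment over all features tested). The threshold was an adjusted p of 0.05 with a minimum fold of 1.5, and the SE was derived from the log2 change and the square root of F. Groups with at most 3 counts in every library gave bounds, as the mean CPM of the other group over the mean CPM of 3 counts. Batches 1, 2 and 3 pair the libraries, per the labels. As a check, deviations from the group means were correlated, and the median r was 0.0277 over 216 pairs from 1 batch and −0.0151 over 432 pairs from different batches. P-values measure the spread between these batches of 1 cell line. Given library by library were, per role, the feature called in most chemicals in each direction, and each feature called in opposite directions in 2 chemicals, with others added after their values were seen. The members and lists were chosen with earlier results of these data known. Alternatives were DESeq2 1.42.0, upper-quartile scaling, no filter, no minimum fold, the batch as a block, a slope on log2 concentration, one model of all libraries and leaving out each replicate, and, chosen after seeing the data, trichostatin A and scriptaid each without 1 library. Python 3.11.15, pandas 2.3.3 and matplotlib 3.10.9 were used for tables and figures.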

Additional observations from a re-analysis of the deposited data

Results flagged for a closer look

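The change of the clusterin probe CLU_15548 at the highest concentration was 2.31 higher on the log2 scale in vorinostat than in mocetinostat. This pair was chosen because the feature was called in opposite directions in it, so the difference is a description without a test. Over 7 chemicals without trichostatin A, the change differed between chemicals for 20 of the 35 complement features in that model, beside 21.4% of all features. Doses were not matched, and the part of dose and plate in these differences was not tested.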

How the results depend on the processing

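Of 362 alternative values for the counts of members, 327 stayed within 1.5 times the count reported, 19 were lower and 16 were higher. Among the 36 falls and rises of the features chosen by rule, no log2 change turned its sign. Uncalled changes did so in trichostatin A. There CD59 changed by −0.30 with all libraries and by 0.34 without replicate 3, and C8B by 0.34 and −0.62. Leaving out 1 replicate moved the third-concentration falls to 15 to 22 in apicidin, 11 to 20 in mocetinostat, 0 to 15 in scriptaid, 0 to 7 in valproic acid and 7 to 14 in vorinostat, and the fourth-concentration falls to 0 to 8 in panobinostat, 0 to 18 in scriptaid and 14 to 23 in valproic acid. It moved second-concentration falls in mocetinostat to 0 to 9. The 9 of 31 came without replicate 3, where 1743 of 13235 features fell and 1487 rose, and 2 members rose. Falls at the highest concentration in trichostatin A moved to 0 to 8 (4 without only the replicate 3 library of the lowest concentration). In valproic acid they moved to 17 to 25, with 17 of 33 without replicate 1, where 325 of 12955 features fell. No count went below 19 in the remaining chemicals. Rises at the highest concentration moved to 1 to 3 in apicidin, 0 to 1 in panobinostat and 1 to 2 in tacedinaline. Median log2 changes then ran from −2.58 to −2.21 in apicidin, −3.25 to −2.97 in mocetinostat, −3.63 to −3.28 in tacedinaline and −3.76 to −3.19 in vorinostat. Without the scriptaid library that stood apart, falls at the third concentration of scriptaid were 19 and rises at the highest 1. With the batch as a replicate block no count of falls or rises left 1.5 times the count reported, and the medians were −2.50 in apicidin and −3.20 in mocetinostat.

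Without the filter on low counts, falls were 19 at the third concentration of scriptaid and 9 of valproic acid, 2 at the second in apicidin, 4 in mocetinostat and 2 in valproic acid, and 1 at the highest in trichostatin A, with 1 rise in tacedinaline. DESeq2 gave 12 at the third concentration of scriptaid and 2, 3 and 1 at the second of apicidin, mocetinostat and valproic acid. In a model of all libraries the rises were 1 in apicidin, 0 in panobinostat and 1 in tacedinaline, and the apicidin median was −2.51. CD59 then rose in 1 chemical in place of 3, and CLU_1406 and CLU_15548 in 1 in place of 2. The CLU_15548 difference between vorinostat and mocetinostat, given without a test, was 2.10 to 2.53 when a replicate was left out. The causes were not tested. Low counts limit MBL2, MASP1, C7, C9, C8G and CLU_1406, for which a few reads set the fold. The folds of C8B, CFHR4 and C1RL_28410, among others, also rest on a few reads at the highest concentration of some chemicals. There C8B had 5, 0 and 0 counts in scriptaid, CFHR4 had 2, 9 and 0 in valproic acid and C1RL_28410 had 1, 4 and 0 in scriptaid.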
